A study of Mus musculus with 24 samples.

Results

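The cytochrome P450 genes of families 1 to 4 were taken as every gene with a single symbol in the array's annotation that is formed of Cyp, a family number from 1 to 4, a subfamily letter and a gene number. The pattern selected 54 of the 18193 genes with a single symbol, with 67 probe sets. Where a gene had several, the one brightest on average across the tissue's 12 arrays stood for it. Family 1 had 3 members, family 2 had 35, family 3 had 5 and family 4 had 11, in 19 subfamilies. Probe sets that carry several symbols were not members.

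RNA was measured on 24 arrays of liver and hindleg muscle from C57BL/6 pups at day 0 after birth, with 3 arrays in each of 8 tissue and diet groups. The dams were fed from the first day of gestation to birth, so diet here is the mother's. LP dams received 8% casein, LPtau dams 8% casein with 1% taurine in the drinking water, NPtau dams 20% casein with the same taurine, and NP dams, the control, 20% casein alone. The labels call the arrays of a group biological replicates and do not say whether their pups had different dams, so p-values measure the spread between these arrays. All values are log2 values after robust multi-array averaging (RMA), and a difference of 1 is a 2-fold change. Liver and muscle were normalized separately, so no level was compared between them. Mean brightness served to pick probe sets and genes to name, and no result compares the levels of different genes.

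Cytochromes P450 are heme enzymes that insert an oxygen atom into fat-soluble molecules, with electrons from NADPH passed on by a reductase in the endoplasmic reticulum. Families 1 to 3 are best known for drugs, pollutants, steroids and bile acids, and family 4 for fatty acids and eicosanoids. In liver many of them are switched on around birth and weaning and are controlled by ligand-sensing receptors such as the aryl hydrocarbon receptor (AHR), the pregnane X receptor, the constitutive androstane receptor (CAR) and PPARA. In the adult lobule some P450 genes are expressed mainly around the portal vein and others around the central vein.

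The liver arrays carried their tissue's markers. The mean of 14 hepatocyte markers lay between 13.90 and 14.07 on all 12 arrays, and 0 of the 14 passed the test in LP against NP livers. Markers of other cell types shifted in both directions between the diets. Of all genes 1.11% were called higher and 1.23% lower in LP against NP livers. Of 10 endothelial markers 4 fell in LP livers (Pecam1, Cdh5, Lyve1 and Esam), and the list mean was 7.33 to 7.54 in LP livers, against 7.79 to 8.11 in NP livers. Of 12 leukocyte markers 1 fell, Cd79b of B cells, and the list mean was 9.40 to 10.22 in LP livers, against 10.39 to 10.76 in NP livers. The mean of 10 stellate and mesenchymal markers was 8.55 to 8.76 in LP livers, against 9.17 to 9.28 in NP livers, with 0 of 10 past the test. The mean of 10 erythroid markers was 10.11 to 10.81 in LP livers, against 10.64 to 11.05 in NP livers, also with 0 past the test. Of 10 macrophage markers 1 rose, Marco, and the list mean overlapped, at 9.42 to 9.65 in LP livers, against 9.24 to 9.73 in NP livers. Of 6 adipocyte markers 1 fell, Fabp4, and the list mean was 6.81 to 7.05 in LP livers, against 7.20 to 7.24 in NP livers. Of these 6, however, 4 had a positive difference, and their median difference was 0.17. In whole tissue, fewer cells of a type and less RNA per cell cannot be told apart, and the part of these shifts in the P450 results was not tested. Female pups, recognised by Xist and Y-linked genes, gave 2 of the 3 LP livers and 1 of the 3 NP livers. They gave 1 of the 3 LPtau livers and 2 of the 3 NPtau livers.

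Of the 6 liver contrasts, LP against NP had the most members past the test. These were 3 of 54: Cyp2f2 and Cyp2a12 rose and Cyp2j5 fell. Across all genes 2.34% were called in this comparison, 1.11% higher and 1.23% lower. A call required an adjusted p under 0.05 in limma's fit of the 12 liver arrays, with the Benjamini-Hochberg procedure run over all genes. The median difference over the 54 members was -0.03, against 0.05 over all genes, and 24 members (44.4%) had a positive difference, against 58.5% of all genes. Cyclic loess normalization of the arrays called 4 members, 2 higher and 2 lower, the additional one being Cyp2c29.

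**Figure D1:**
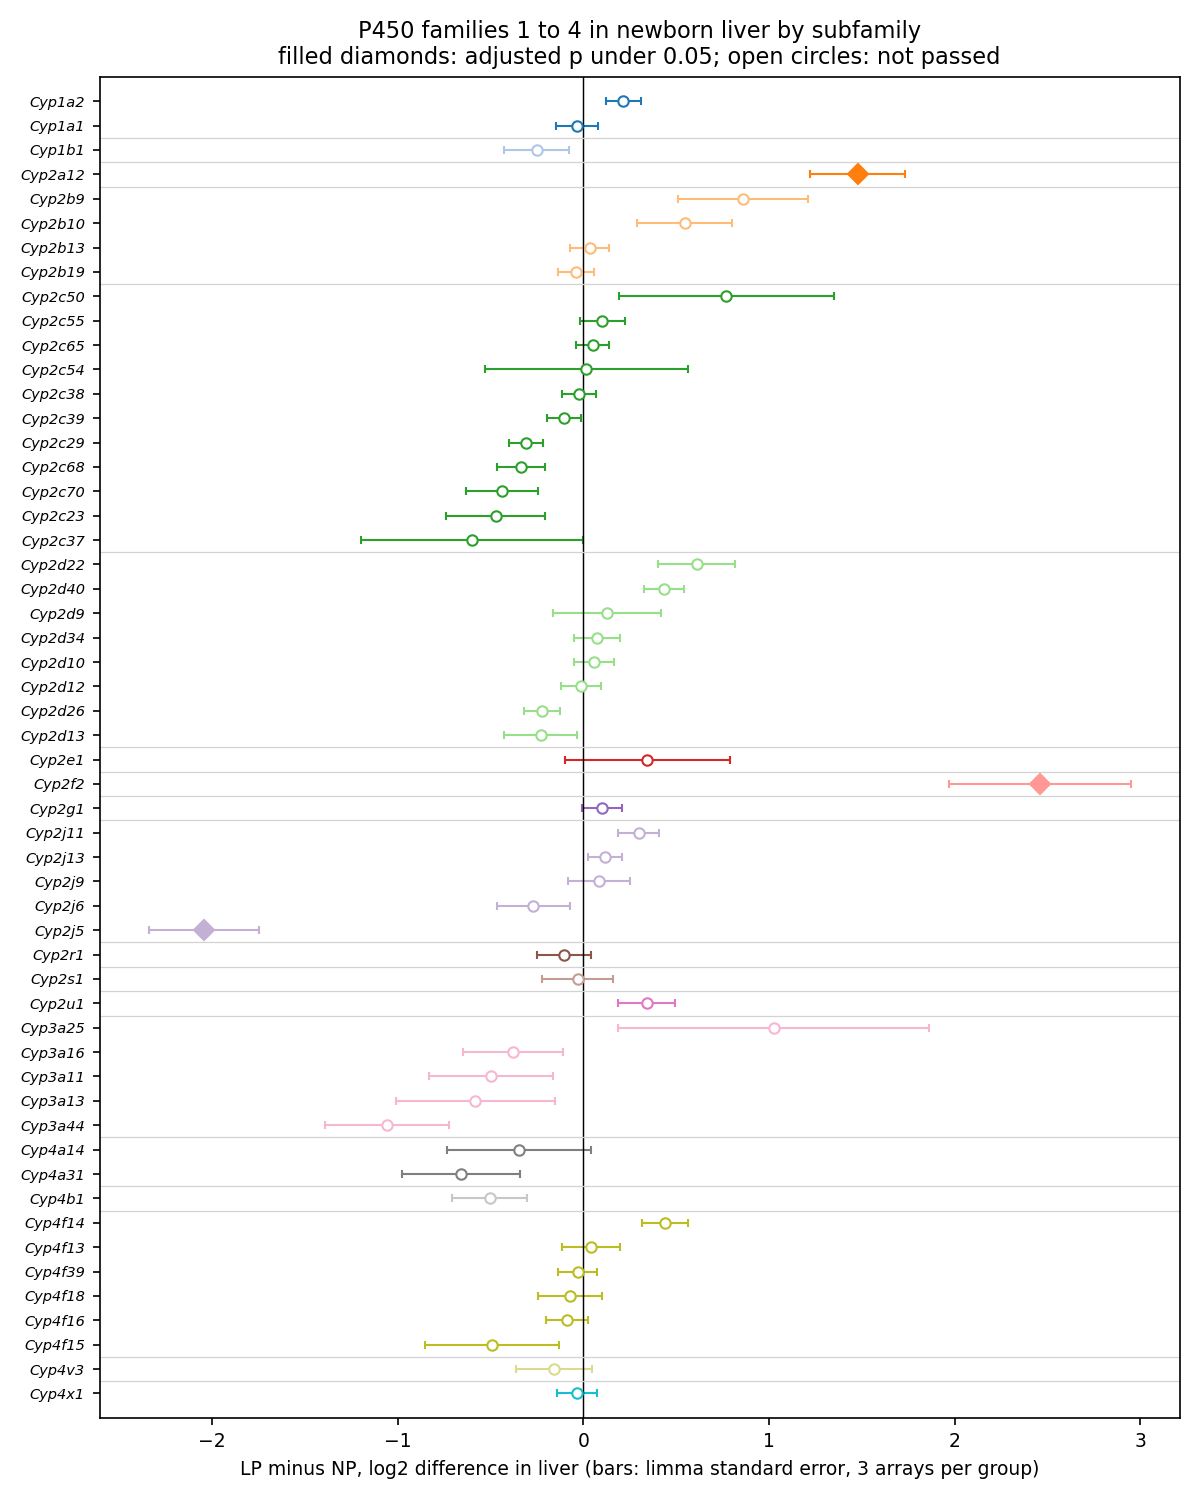
Difference between LP and NP livers (LP minus NP, log2) for each of the 54 P450 genes, grouped by subfamily; bars are limma's standard error with 3 arrays per group, and filled diamonds mark the genes with an adjusted p under 0.05. Cyp2f2 (2.46) and Cyp2a12 (1.48) lie to the right and Cyp2j5 (-2.04) to the left, and most other members lie within 1 of zero.

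Cyp2f2 is the P450 that activates naphthalene in the club cells of the mouse airway and is also a gene of periportal hepatocytes in adult liver. It read 11.06, 10.44 and 9.88 in LP livers, 10.16, 9.72 and 8.98 in LPtau livers, 8.03, 9.28 and 8.11 in NPtau livers, and 8.86, 7.13 and 8.03 in NP livers. Every LP array was above every NP array, while LPtau and NPtau arrays overlapped. The difference between LP and NP was 2.46 (SE 0.49, 5.50-fold; adjusted p = 0.0324, limma). The mean of 7 lung markers was 5.31 to 5.33 in LP livers, against 5.08 to 5.30 in NP livers, and Scgb1a1, the defining club cell marker, stayed between 3.70 and 4.10 on all 12 arrays.

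Cyp2a12 hydroxylates testosterone and, in mouse liver, secondary bile acids. Its values were 11.13, 11.42 and 11.11 in LP livers, 10.44, 10.76 and 10.12 in LPtau livers, 9.78, 10.50 and 9.68 in NPtau livers, and 10.19, 9.38 and 9.66 in NP livers. The 3 LP arrays lay above the other 9 without overlap. The rise in LP over NP livers was 1.48 (SE 0.26, 2.79-fold; adjusted p = 0.0227, limma).

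Cyp2j5 is an arachidonic acid epoxygenase of mouse kidney and liver. LP livers read 6.99, 6.12 and 5.75, LPtau livers 8.19, 8.07 and 8.56, NPtau livers 7.93, 8.40 and 8.55, and NP livers 8.15, 8.12 and 8.72. Only the LP arrays were low, and the other 3 diets overlapped. The difference between LP and NP was -2.04 (SE 0.30, 0.24-fold; adjusted p = 0.0133, limma). A second probe set of Cyp2j5 moved the same way, with 5.62, 4.45 and 4.52 in LP livers, against 5.47, 6.34 and 6.64 in NP livers. Its difference of -1.29 (SE 0.36) did not pass the test over all probe sets (adjusted p = 0.0929).

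**Figure D2:**
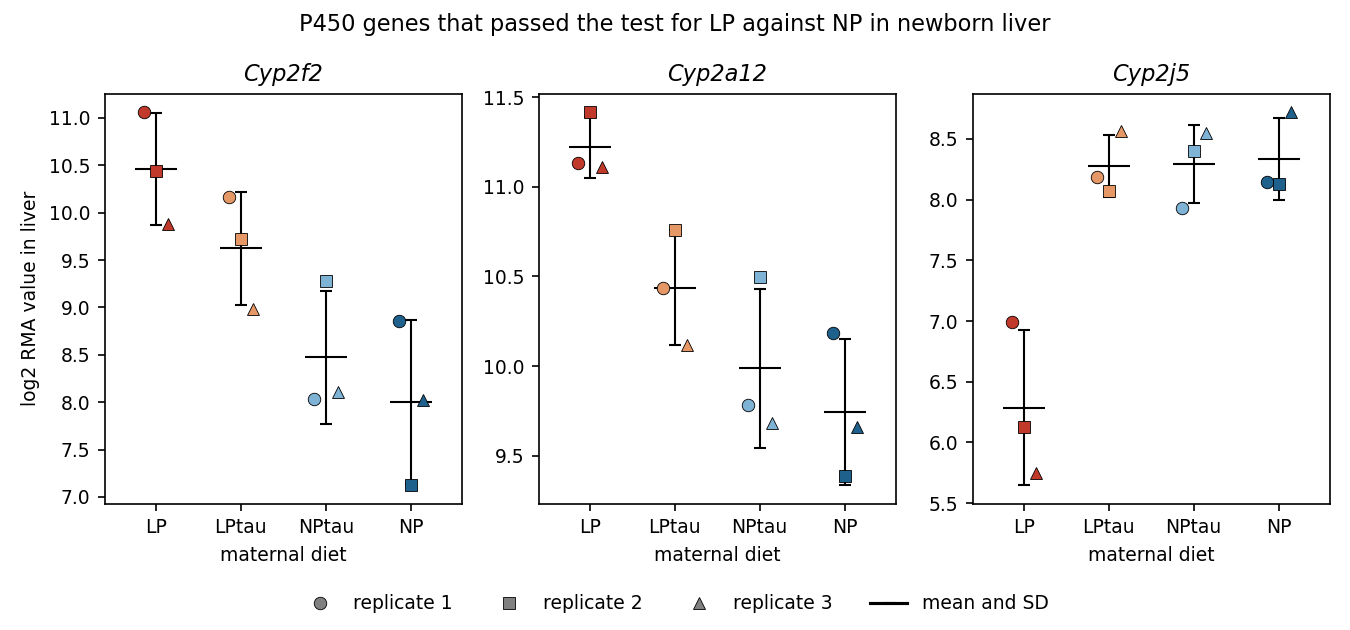
RMA log2 values of Cyp2f2, Cyp2a12 and Cyp2j5 on the 12 liver arrays by maternal diet, with a point per array shaped by replicate number, the group mean as a horizontal line and the SD as bars (n = 3). For Cyp2a12 and Cyp2j5 the 3 LP arrays stand clear of all others, and for Cyp2f2 the LP arrays stand clear of the NP arrays.

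These calls rest on 3 arrays a group and several are lost when an array is left out. Without LP replicate 2 or LP replicate 3, 0 of the 3 members passed, with adjusted p from 0.0515 to 0.118 in limma, and without NP replicate 3 likewise, with 0.0537 to 0.106. Of the 3, only Cyp2a12 passed without NP replicate 1 (0.0479) and only Cyp2j5 without NP replicate 2 (0.0330). Without LP replicate 1, 5 members passed, the 3 above with Cyp4f14 and Cyp2d40. The differences themselves kept their sign throughout and ranged from 2.02 to 2.89 for Cyp2f2, 1.30 to 1.70 for Cyp2a12 and -2.40 to -1.77 for Cyp2j5. With sex as a covariate all 3 still passed.

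The stretch just before the transcription start is shown for these 3 genes, since they carry the diet differences. Each sequence is the 250 bases before the start in RefSeq's GRCm38.p6 assembly, written 5′ to 3′ on the gene's strand: chr7:27119705-27119954 on the plus strand for Cyp2f2, chr7:27028840-27029089 on the plus strand for Cyp2a12 and chr4:96664120-96664369 on the minus strand for Cyp2j5. Capitals mark a match, on either strand, to any of 5 motifs: TATAAA of the TATA box, AGGTCA of nuclear receptor half-sites, GTTAAT of HNF1, TTNNGCAA of C/EBP and PAR bZIP factors, and GCGTG of the AHR response element.
Cyp2f2: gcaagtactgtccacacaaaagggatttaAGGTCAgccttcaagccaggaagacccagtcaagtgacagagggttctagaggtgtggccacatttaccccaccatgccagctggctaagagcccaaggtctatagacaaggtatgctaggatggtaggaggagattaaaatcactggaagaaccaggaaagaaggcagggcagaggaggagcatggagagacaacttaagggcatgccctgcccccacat
Cyp2a12: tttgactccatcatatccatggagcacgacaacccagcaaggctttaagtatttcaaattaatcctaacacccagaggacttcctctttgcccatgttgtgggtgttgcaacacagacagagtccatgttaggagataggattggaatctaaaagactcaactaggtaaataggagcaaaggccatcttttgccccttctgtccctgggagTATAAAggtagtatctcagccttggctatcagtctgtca
Cyp2j5: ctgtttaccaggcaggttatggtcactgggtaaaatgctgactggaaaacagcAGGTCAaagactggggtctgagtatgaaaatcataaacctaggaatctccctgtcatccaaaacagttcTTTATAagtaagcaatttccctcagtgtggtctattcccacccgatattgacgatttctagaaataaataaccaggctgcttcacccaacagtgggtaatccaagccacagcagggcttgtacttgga
Cyp2f2 and Cyp2j5 each held 1 AGGTCA on their own strand. Cyp2a12 held TATAAA near its start, and Cyp2j5 held it on the opposite strand, printed as TTTATA. Of 27025 RefSeq promoters of this length 13.8% held AGGTCA and 13.0% held TATAAA. Of the 43 members with an entry, 11 held AGGTCA (25.6%) and 17 held TATAAA (39.5%). GTTAAT was in 2 of 43 members against 6.52% of all promoters, TTNNGCAA in 8 against 9.55%, and GCGTG in 10 against 28.2%. A match describes the letters of the window only.

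Cyp2f2 and Cyp2a12 lie in a single group of neighbouring P450 genes on mouse chromosome 7, with Cyp2s1, Cyp2b10, Cyp2b13, Cyp2b9, Cyp2b19 and Cyp2g1. The group is described because it holds these 2 called genes, and both are within its counts, which are therefore no separate evidence. In LP against NP livers 6 of these 8 had a positive difference (58.5% of all genes), with a median of 0.32, and 4 had LP arrays all above the NP arrays. Non-overlap of this kind, in the higher direction, held for 18.3% of all genes. Besides the 2 that passed the test, these 4 included the phenobarbital- and CAR-responsive Cyp2b10 and Cyp2b9, a form of female adult liver. Cyp2b9 read 6.99, 6.47 and 6.43 in LP livers, against 5.86, 5.72 and 5.74 in NP livers, a difference of 0.86 (SE 0.35; adjusted p = 0.181, limma). Cyp2b10 read 7.29, 7.34 and 6.73 in LP livers, against 6.48, 6.56 and 6.68 in NP livers, a difference of 0.55 (SE 0.25; adjusted p = 0.232). The other probe sets of Cyp2b10, of a kind that can bind several genes, differed by -0.02 and -0.03. Cyp2b13, Cyp2b19 and Cyp2g1 stayed between 3.58 and 4.94 on all liver arrays.

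Cyp2j5 also lies among its relatives, on chromosome 4, and 0 of its 4 neighbours passed the test. Cyp2j6, an epoxygenase of intestine and liver in mouse, differed by -0.27 between LP and NP livers (SE 0.19; adjusted p = 0.424), Cyp2j9, first described in brain, by 0.09 (SE 0.17), and Cyp2j13 by 0.12. Cyp2j11 read 5.43, 5.76 and 5.55 in LP livers, against 5.38, 5.14 and 5.33 in NP livers, a difference of 0.30 (SE 0.11).

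The Cyp2c subfamily was the largest, with 11 members, and 0 passed the test in LP livers, where 3 had an unadjusted p under 0.05 (22.7% of all genes). Of the 11, 7 had a negative difference, with a median of -0.10, and 3 had LP arrays all below the NP arrays. Such non-overlap in the lower direction held for 10.9% of all genes. Cyp2c68 read 12.69, 12.82 and 12.95 in LP livers, against 13.13, 13.16 and 13.18 in NP livers, a difference of -0.34 (SE 0.13; adjusted p = 0.160). Cyp2c29 read 5.02, 5.16 and 5.18 in LP livers, against 5.50, 5.35 and 5.44 in NP livers, a difference of -0.31 (SE 0.09; adjusted p = 0.0934). Its adjusted p was 0.0365 after cyclic loess normalization. Cyp2c39 differed by -0.10 (SE 0.09) and Cyp2c55 and Cyp2c65 by 0.10 and 0.05. Cyp2c70, which makes muricholic acids from bile acids in mouse, had 11.43, 12.31 and 11.95 in LP livers, against 12.29, 12.24 and 12.48 in NP livers (difference -0.44, SE 0.19; adjusted p = 0.211).

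Of the 8 Cyp2d genes, which form a single neighbourhood on chromosome 15, 0 passed the test. Cyp2d22, the mouse gene often compared with the human drug-metabolising CYP2D enzyme, read 9.79, 9.31 and 9.25 in LP livers, against 8.76, 8.91 and 8.86 in NP livers, a difference of 0.61 (SE 0.21; adjusted p = 0.128, limma). Its second probe set read 9.08, 8.84 and 8.81 in LP livers, against 7.57, 8.16 and 7.88 in NP livers, a difference of 1.04 that passed the test over all probe sets (adjusted p = 0.0348). Both probe sets were higher in every LP array than in every NP array, and the one fixed by the mean level did not pass. Cyp2d40 differed by 0.43 (SE 0.11; adjusted p = 0.0631), with 4.96 to 5.07 in LP livers, against 4.55 to 4.65 in NP livers. Cyp2d26, at 13.09 to 13.15 in LP livers, against 13.27 to 13.37 in NP livers, differed by -0.22 (SE 0.10). Cyp2d9, the steroid hydroxylase of adult male liver, overlapped between the diets, with 11.58, 10.89 and 10.57 in LP livers, against 10.58, 11.31 and 10.78 in NP livers.

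The Cyp3a genes, whose products metabolise steroids and many drugs, had a negative difference in LP livers in 4 of 5 members, with 0 past the test. Cyp3a44, a form of adult female liver, read 7.13, 7.31 and 7.08 in LP livers, 7.45, 7.43 and 7.72 in LPtau livers, 8.64, 7.10 and 7.47 in NPtau livers, and 8.02, 8.74 and 7.93 in NP livers. The LP arrays were below the NP arrays by 1.06 on average (difference -1.06, SE 0.33; adjusted p = 0.107). When each of the 12 arrays was left out, the adjusted p in limma was 0.0365 to 0.264, and Cyp3a44 passed in 1 of the 12 fits. Cyp3a16, the form typical of fetal and newborn mouse liver, read 8.68, 8.78 and 8.54 in LP livers, against 8.96, 9.01 and 9.16 in NP livers, a difference of -0.38 (SE 0.27; adjusted p = 0.416). Cyp3a11, the main adult form and a target of the pregnane X receptor, overlapped between the diets, with 13.57, 12.88 and 12.70 in LP livers, against 13.34, 13.65 and 13.65 in NP livers (difference -0.50, SE 0.33). Cyp3a25 was the member with a positive difference, 1.03 (SE 0.84; adjusted p = 0.480), and its values are given with those of other members that varied widely.

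Family 4 oxidises the end carbon of fatty acids and eicosanoids, and 0 of its 11 members passed the test in LP livers. Cyp4a14, a PPARA target, differed by -0.35 (SE 0.39), with 12.83, 12.73 and 12.19 in LP livers, against 12.65, 13.03 and 13.12 in NP livers. Cyp4a31 differed by -0.66 (SE 0.32) and its second probe set by -1.20. Cyp4b1 read 7.16, 7.08 and 6.91 in LP livers, against 7.33, 7.50 and 7.84 in NP livers, a difference of -0.50 (SE 0.20; adjusted p = 0.174). In the opposite direction, Cyp4f14, which inactivates leukotriene B4, read 4.58, 4.95 and 4.90 in LP livers, against 4.31, 4.46 and 4.34 in NP livers, a difference of 0.44 (SE 0.12; adjusted p = 0.0833). Cyp4f15 differed by -0.49 (SE 0.36), and Cyp4f18, known from neutrophils, by -0.07 (SE 0.17).

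Of the family 1 genes, which are AHR targets, 0 passed the test. Cyp1a1 lay between 3.90 and 4.25 on all 12 liver arrays, and differed by -0.03 between LP and NP livers. Cyp1a2, in adult liver a caffeine-metabolising enzyme, read 4.57, 4.70 and 4.62 in LP livers, against 4.38, 4.32 and 4.54 in NP livers, a difference of 0.22 (SE 0.09; adjusted p = 0.205). Cyp1b1 differed by -0.25 (SE 0.17), and its 3 probe sets did not share a sign. Of the members with a subfamily of their own, Cyp2u1, a fatty acid hydroxylase, differed by 0.34 (SE 0.15; adjusted p = 0.214), with 5.71 to 6.01 in LP livers, against 5.38 to 5.60 in NP livers. Cyp2r1, the vitamin D hydroxylase of liver, differed by -0.11, and Cyp2s1, of epithelia, by -0.03.

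Over the 54 members, 10 had LP arrays all above the NP arrays (18.3% of all genes) and 8 had them all below (10.9% of all genes). An unadjusted p under 0.05 was reached by 16 members, and by 22.7% of all genes.

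Taurine given with the low protein diet moved 1 member past the test. LP against NP and LPtau against LP share the LP arrays, with opposite sign. A gene picked for its LP values thus tends to reverse here, so a reversal is no separate evidence. Cyp2j5 rose by 1.99 in LPtau over LP livers (SE 0.30, 3.97-fold; adjusted p = 0.0498, limma), where 0.066% of all genes were called. Its LPtau arrays (8.07 to 8.56) overlapped the NPtau and NP arrays, and LPtau differed from NP livers by -0.05 (SE 0.30). This call sat just inside the threshold and was lost in several settings. The adjusted p was 0.0772 with a replicate block, 0.0789 after cyclic loess, 0.0954 with sex as a covariate, 0.173 from the 6 arrays of the contrast alone and 0.194 for the mean of its probe sets. Leaving out LP replicate 1 gave a difference of 2.34 with an adjusted p of 0.00449. Leaving out LP replicate 2 or 3 or any LPtau array gave 0.123 to 0.226, with differences from 1.72 to 2.09. Leaving out an NPtau or NP array, which changes only the estimate of spread, gave 0.0432 to 0.0884.

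Markers of other liver cell types also differed between LPtau and LP livers, with 0 past the test in the lists below (0.066% of all genes). The endothelial list mean was 7.87 to 8.14 in LPtau livers, against 7.33 to 7.54 in LP livers, with 9 of 10 markers positive. The stellate and mesenchymal list mean was 9.10 to 9.90 in LPtau livers, against 8.55 to 8.76 in LP livers, with 10 of 10 positive. The leukocyte list mean was 10.14 to 10.73 in LPtau livers, against 9.40 to 10.22 in LP livers, with 11 of 12 positive. Median differences were 0.60 for endothelial, 0.81 for stellate and mesenchymal and 0.59 for leukocyte markers, against -0.01 over all genes. Hepatocyte markers averaged 14.00 to 14.06 in LPtau livers, against 13.93 to 13.95 in LP livers. The part of these shifts in the P450 values was not tested.

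Both genes that rose in LP livers were lower in LPtau than in LP livers without passing the test. They were picked for high values on the same LP arrays, so a lower LPtau value is no separate evidence. Cyp2a12 differed by -0.78 (SE 0.26; adjusted p = 0.426), with LPtau arrays all below LP arrays, and Cyp2f2 by -0.84 (SE 0.49; adjusted p = 0.674), with overlap. Cyp2e1, which oxidises ethanol and acetone and is switched on in liver after birth, read 13.08, 11.85 and 11.53 in LP livers, 13.40, 13.33 and 13.26 in LPtau livers, 12.14, 12.08 and 12.61 in NPtau livers, and 10.79, 12.55 and 12.09 in NP livers. Its 3 LPtau arrays were the highest of the 12. LPtau exceeded LP livers by 1.17 (SE 0.44; adjusted p = 0.494), and this difference did not pass. Cyp4f14 differed by -0.34 (SE 0.12; adjusted p = 0.488), with 4.44, 4.53 and 4.45 in LPtau livers, against 4.58, 4.95 and 4.90 in LP livers. Cyp2c68 differed by 0.34 (SE 0.13) and Cyp2c70 by 0.49 (SE 0.19), both without overlap. Cyp1b1 differed by 0.45 (SE 0.17; adjusted p = 0.503), with overlap. Here 7 members had an unadjusted p under 0.05 (8.48% of all genes), 6 members had LPtau arrays all above LP arrays (6.77% of all genes) and 3 had them all below (7.01%).

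Taurine under the normal protein diet left 0 of 54 members and 0% of all genes past the test in limma, and 0 members had an unadjusted p under 0.05 (2.75% of all genes). The smallest p values belonged to Cyp2c55, with a difference of 0.25 in NPtau over NP livers (SE 0.12), Cyp3a11, with -0.58 (SE 0.33), and Cyp2c29, with -0.15 (SE 0.09).

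Low protein was also compared within the taurine-supplemented dams. Here 0 members and 0% of all genes passed the test in LPtau against NPtau livers, and 4 members had an unadjusted p under 0.05 (4.74% of all genes): Cyp2f2, Cyp2e1, Cyp2j9 and Cyp2d22. Cyp2f2 differed by 1.15 (SE 0.49), Cyp2e1 by 1.05 (SE 0.44), Cyp2j9 by 0.39 (SE 0.17) and Cyp2d22 by 0.47 (SE 0.21), each with an adjusted p of 0.999. The comparisons LP against NP and LPtau against NPtau share no array. Over the 54 members 32 had the same sign in both (59.3%), against 57.9% of all genes. The median absolute difference was 0.26 without taurine and 0.12 with it over the 54 members, and 0.19 and 0.11 over all genes. Cyp2a12 had 1.48 without taurine and 0.45 with it, Cyp2f2 had 2.46 and 1.15, Cyp2b9 had 0.86 and 0.41, and Cyp2j5 had -2.04 and -0.02. These genes were named for large LP minus NP differences, so smaller values in the other comparison are likely from that choice alone.

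**Figure D3:**
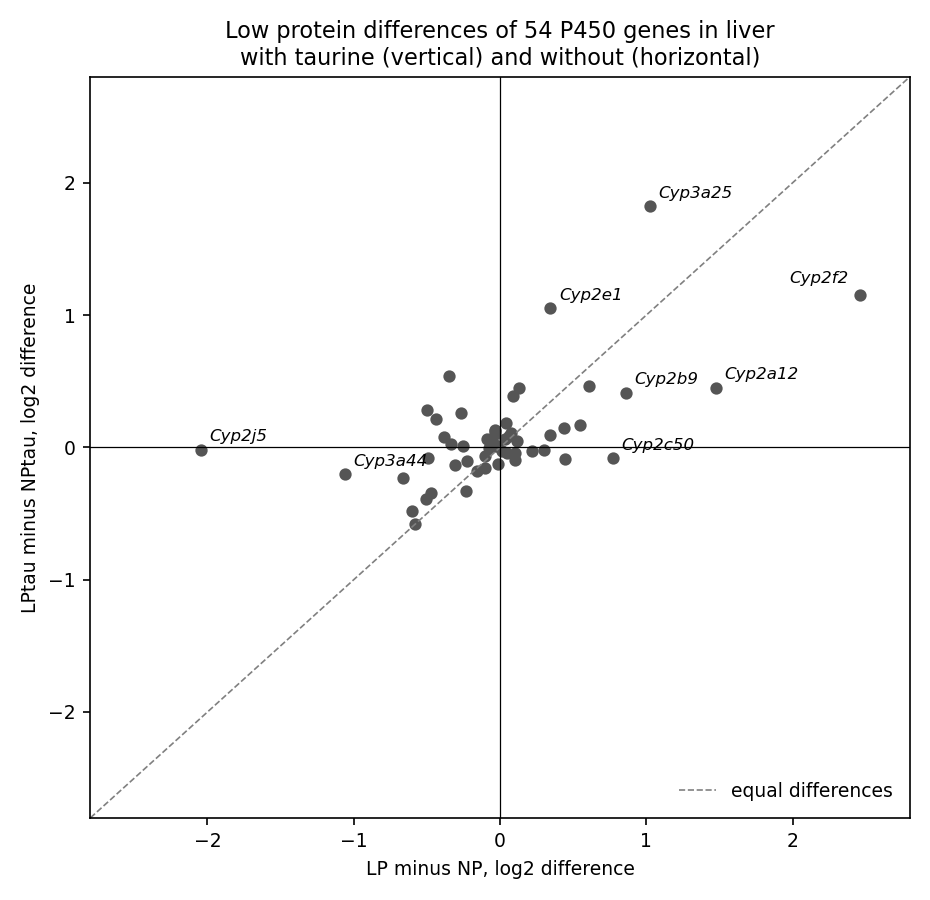
Each point is one of the 54 P450 genes in liver, placed by LP minus NP (horizontal, log2) and LPtau minus NPtau (vertical, log2), with a dashed line where the differences are equal. Cyp2j5 sits at -2.04 on the horizontal axis and near zero on the vertical one, while Cyp2f2 and Cyp2a12 are positive on both and below the dashed line.

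The difference between these effects is the protein by taurine interaction, for which 0 members and 0% of all genes passed the test in limma, and 4 members had an unadjusted p under 0.05 (8.46% of all genes). It was 2.03 for Cyp2j5 (SE 0.42; adjusted p = 0.317), -1.03 for Cyp2a12 (SE 0.36; adjusted p = 0.558), -0.53 for Cyp4f14 (SE 0.18; adjusted p = 0.548) and 0.66 for Cyp2c70. Without LP replicate 1 the interaction of Cyp2j5 was 2.38 with an adjusted p of 0.0493. LPtau livers set against NP livers likewise had 0 members and 0% of all genes past the test and 4 members at an unadjusted p under 0.05 (6.77% of all genes). Of these, Cyp2f2 differed by 1.62 (SE 0.49; adjusted p = 0.602) and Cyp2e1 by 1.52 (SE 0.44; adjusted p = 0.598), both with LPtau arrays all above NP arrays.

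Several members varied widely between livers of the same diet. The SD within diets exceeded 0.5 for 9 of 54 members (16.7%), against 4.88% of all genes. The members below were chosen after their values were seen and were not tested further. Cyp3a25 read 12.59, 8.31 and 11.15 in NPtau livers and 10.89, 12.73 and 11.76 in NP livers, while its LP arrays (12.51 to 13.21) and LPtau arrays (12.23 to 12.77) were close together. Cyp3a13 was lowest on the same array, with 12.06, 10.05 and 11.59 in NPtau livers, and Cyp4a14 read 13.15, 11.28 and 12.77 there. Pck1, the gluconeogenic enzyme, was also lowest on NPtau replicate 2, at 10.22, against 12.23 and 12.48 on the other NPtau arrays, and it read 10.74 on LP replicate 1.

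LP replicate 1 differed from the other LP livers for 3 Cyp2c genes that are neighbours on chromosome 19. Cyp2c50 read 7.26 there, against 4.65 and 4.48 on the other LP arrays and 4.54 to 5.50 on the 9 arrays of the other diets. Cyp2c54 read 7.75 there, against 5.34 and 5.43 on the other LP arrays and 5.96 to 7.30 on the arrays of the other diets, so the other LP arrays were the lowest of the 12. Cyp2c37 read 10.37 there, against 8.76 and 7.66, and overlapped the other diets, which reached 10.48 on NP replicate 2 and 10.13 on NPtau replicate 2. LP replicate 1 had the lowest mean of the 10 erythroid markers among the liver arrays, 10.11, against 10.58 and 10.81 on the other LP arrays. Whether this is linked to the Cyp2c values was not tested.

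**Figure D4:**
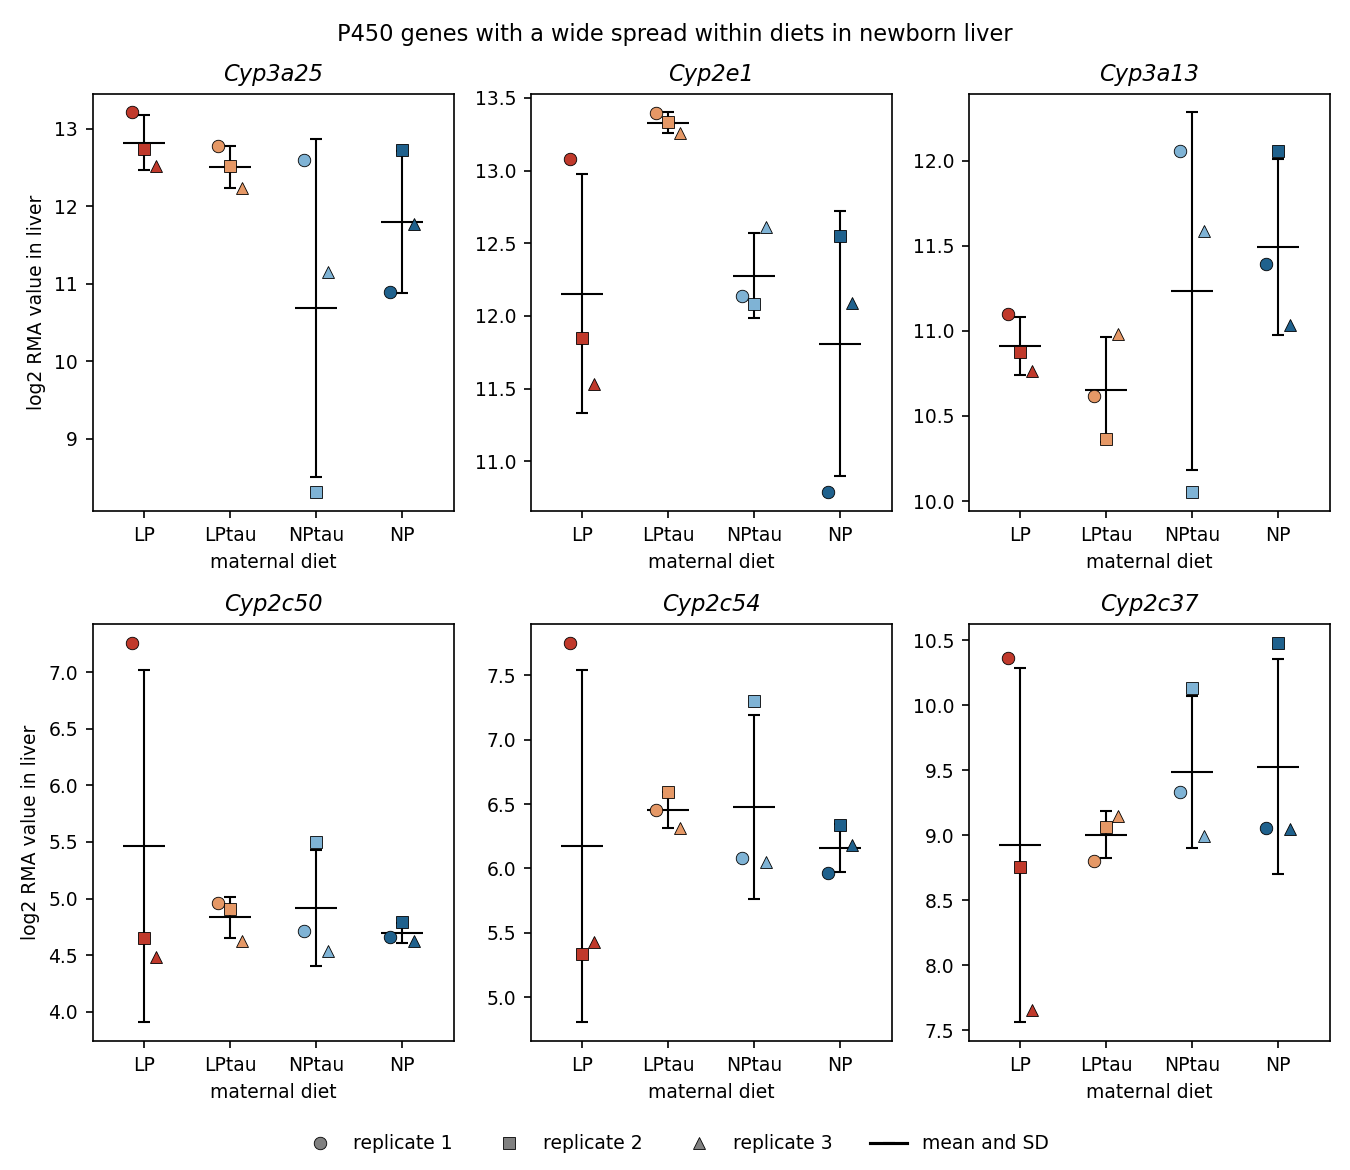
RMA log2 values of 6 P450 genes on the 12 liver arrays by maternal diet, with a point per array shaped by replicate number, the mean as a horizontal line and the SD as bars (n = 3). NPtau replicate 2 is low for Cyp3a25 and Cyp3a13, LP replicate 1 is high for Cyp2c50 and Cyp2c54, and the LPtau arrays are the highest for Cyp2e1.

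Genes that serve or regulate these enzymes were read from lists compiled with earlier results of these data known. Of 15 measured genes for electron supply and heme synthesis 0 passed the test in LP against NP livers (2.34% of all genes). Por, which encodes the reductase, was not among these 15, so it is not described. Their median difference was 0.12. Pgrmc1, a heme-binding P450 partner, read 0.46 higher (SE 0.12; adjusted p = 0.0767), and Alas1, the first enzyme of heme synthesis, read 10.07, 10.22 and 10.41 in LP livers, against 8.96, 9.92 and 8.55 in NP livers, a difference of 1.09 that did not pass. Of 36 receptors and regulators 1 rose, Tef, a PAR bZIP clock-output factor that drives drug-metabolism genes. Tef read 9.79, 9.69 and 9.45 in LP livers, against 8.75, 8.08 and 8.65 in NP livers, a difference of 1.15 (SE 0.20; adjusted p = 0.0236). It was 0.97 lower in LPtau than in LP livers (difference -0.97, SE 0.20; adjusted p = 0.166), a comparison that uses the same LP arrays.

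The sensors themselves did not pass the test. Nr1i2, the pregnane X receptor, differed by 0.23 (SE 0.20), Nr1i3, which encodes CAR, by 0.46 (SE 0.32), and Ppara by -0.41 (SE 0.21; adjusted p = 0.256). Ahr differed by -1.18 (SE 0.42; adjusted p = 0.142), Dbp, a relative of Tef, by 0.82 (SE 0.24; adjusted p = 0.0943), and Ppard by -0.43 (SE 0.11; adjusted p = 0.0734). Of 4 other AHR targets 0 passed, with a median of -0.01. Of 11 other PPARA targets 0 passed as well, with 7 negative and 4 positive differences and a median of -0.40. LP arrays lay all below the NP arrays for 4 of them (10.9% of all genes) and all above for 1 (18.3%). Acot3 differed by 1.89 (SE 0.52; adjusted p = 0.0775) and Ehhadh by -1.24 (SE 0.35; adjusted p = 0.0833).

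Among enzymes that act beside the P450s, Ephx1, the microsomal epoxide hydrolase, fell. It read 7.74, 7.63 and 7.27 in LP livers, against 8.49, 8.48 and 9.11 in NP livers, a difference of -1.14 (SE 0.24; adjusted p = 0.0376, limma). It was the 1 that passed of 8 measured epoxide hydrolases and flavin monooxygenases (2.34% of all genes passed). Fmo5 differed by 1.32 (SE 0.35; adjusted p = 0.0719) and Fmo4 by 0.60 (SE 0.18; adjusted p = 0.0971). Of 11 UDP-glucuronosyltransferases 0 passed, with Ugt2b35 at 0.87 (SE 0.27; adjusted p = 0.107).

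Outside families 1 to 4, 2 of 17 P450 genes passed the test in LP against NP livers (2.34% of all genes). Cyp8b1, which makes cholic acid, fell, with 9.05, 8.66 and 8.01 in LP livers, against 10.18, 10.90 and 10.88 in NP livers, a difference of -2.08 (SE 0.36; adjusted p = 0.0227). Cyp26a1, which breaks down retinoic acid, rose, with 5.78, 6.65 and 6.46 in LP livers, against 5.22, 5.54 and 5.28 in NP livers, a difference of 0.95 (SE 0.22; adjusted p = 0.0493).

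The adult zonation lists were read because Cyp2f2 belongs to the periportal side and Cyp2e1 to the pericentral side of the adult lobule. Of 11 measured periportal genes 3 rose and 0 fell in LP livers: Gldc of the glycine cleavage system by 1.69 (SE 0.28; adjusted p = 0.0182), Hal, histidine ammonia-lyase, by 1.54 (SE 0.16; adjusted p = 0.00376) and Aldh1b1, a mitochondrial aldehyde dehydrogenase, by 1.52 (SE 0.30; adjusted p = 0.0314). Of 13 pericentral genes 1 fell and 0 rose. This was Gulo, which makes vitamin C in mouse, with -0.79 (SE 0.17; adjusted p = 0.0407). Oat, of the same list, differed the other way by 1.09 (SE 0.32; adjusted p = 0.0934, limma). Its LP arrays were all above the NP arrays, but it did not pass. Positive differences were found in 8 of the 13 pericentral and 7 of the 11 periportal genes. The list medians were 0.13 for periportal and 0.10 for pericentral genes, against 0.05 for all genes. Over all genes 2.34% were called.

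In hindleg muscle 0 of 54 members passed the test in any of the 6 contrasts. In LP against NP muscle 0.126% of all genes were called, and 1 member had an unadjusted p under 0.05 (10.8% of all genes). This was Cyp2j6, with 4.95, 4.56 and 4.58 in LP muscle, against 4.17, 4.43 and 4.43 in NP muscle, a difference of 0.36 (SE 0.13; adjusted p = 0.343, limma). Cyp2c65 differed by -0.21 (SE 0.10) and Cyp4f18 by 0.32 (SE 0.16). Of all genes 0.022% were called in LPtau against LP muscle and 0% in the other 4 contrasts. Unadjusted p values under 0.05 were reached by 1 member in LPtau against LP (12.9% of all genes), 0 in NPtau against NP (0.484%), 1 in LPtau against NPtau (5.45%), 2 in LPtau against NP (3.75%) and 1 for the interaction (6.56%).

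Members known from skin varied widely among the muscle arrays and are given beside skin markers, chosen after their values were seen. The mean of 8 skin markers was 12.07, 6.76 and 6.47 in LP muscle, 5.34, 4.82 and 9.60 in LPtau muscle, 4.94, 9.75 and 5.44 in NPtau muscle, and 8.67, 4.91 and 8.45 in NP muscle. Cyp2b19, the keratinocyte epoxygenase, read 9.42, 3.91 and 7.02 in LP muscle, 3.80, 3.69 and 6.35 in LPtau muscle, 3.75, 7.34 and 3.55 in NPtau muscle, and 5.69, 3.55 and 5.55 in NP muscle. Cyp4f39, which makes the acylceramides of the skin barrier, and Cyp2s1 were highest on LP replicate 1, at 6.30 and 6.03, against 3.73 to 3.93 and 4.16 to 4.42 on the other LP arrays. The difference of Cyp2b19 between LP and NP muscle, 1.85 (SE 1.39; adjusted p = 0.731), did not pass. The part of skin RNA in these values was not tested.

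**Figure D5:**
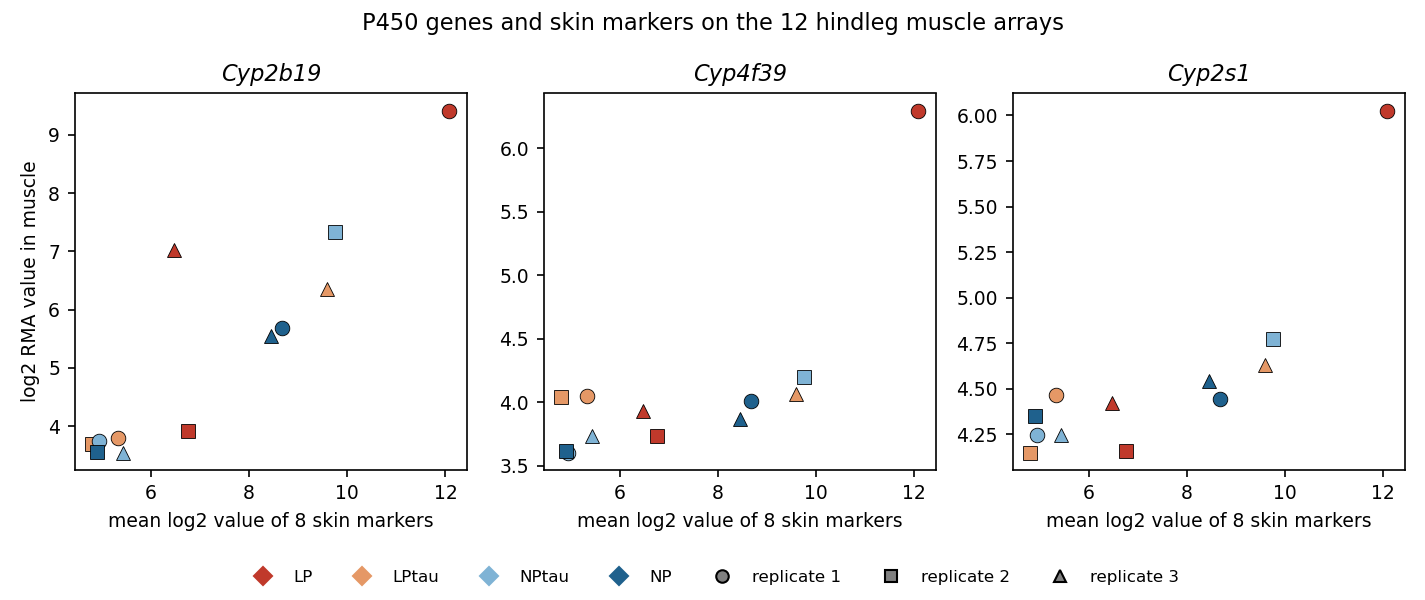
RMA log2 values of Cyp2b19, Cyp4f39 and Cyp2s1 on the 12 muscle arrays (vertical) against the mean log2 value of 8 skin markers on the same array (horizontal), coloured by maternal diet and shaped by replicate number. LP replicate 1 has the highest skin marker mean (12.07) and the highest value of all 3 genes.

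A different muscle array stood out for Cyp2e1, again seen in the values first. On NPtau replicate 3 Cyp2e1 read 7.02, against 3.83 and 4.04 on the other NPtau arrays and 4.16 to 4.26 in NP muscle. Cyp4b1 was also highest there, at 7.36, against 5.97 and 5.98 on the other NPtau arrays, but read 7.12 on LP replicate 1 as well, where the adipocyte list mean was 8.19 and below all 3 NP arrays. NPtau replicate 3 had the highest mean of 6 adipocyte markers among the muscle arrays, 9.69, with Adipoq at 13.34, and the part of adipose RNA was not tested.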

How the data were processed

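The authors deposited log2 expression values, made with RMA under R 2.7.0 per the submitters' processing notes, which also name MAS5 without its role. The files hold 45101 probe sets on 24 arrays, and the tissues were normalized apart, per the labels. Scanner files were not used here, so the authors' background correction was not checked and no probe set was called present or absent. The number of arrays limits the precision. Of the probe sets, the platform annotation gave 34945 a single symbol, 932 several and 9160 none. Low values were not filtered, and whether they exceed background was not measured in either tissue. For each tissue limma 3.58.1 (R 4.3.3) was run on 12 arrays and 18193 genes with a mean per diet, and p-values were adjusted within each of 6 contrasts. The smallest two-sided p of an exact test of 3 arrays against 3 is 0.1. In data simulated for liver LP against NP, the fit recovered 96% of genes given a log2 change of 2 and 71% of those given 1. These genes were drawn from all genes. The P450 members more often had a wide spread within diets, and recovery among them was not measured. Sex was read from Xist and Y-linked genes. Members and gene lists were chosen with earlier results of these data known. The text names members called in liver, the 8 largest non-overlapping differences each way in liver LP against NP, the highest-mean member of each subfamily with several members, and the 3 with the smallest p in other liver contrasts and in muscle LP against NP. From companion lists it names the called genes and up to 3 with the smallest p, with Nr1i2, Nr1i3, Ahr, Ppara and Dbp. Other genes were named after their values were seen. Alternatives were cyclic loess, median centring, other probe set rules, a level filter, the contrast's arrays alone, a trended robust prior, sex, a replicate block and leaving out each array.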

Additional observations from a re-analysis of the deposited data

Results flagged for a closer look

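Some members differed in opposite directions between the tissues or between the taurine levels, with every array of a group on one side of the other group. Between liver and muscle this held in LP against NP for 2 of 54 members (3.70%) and 3.02% of all genes, in LPtau against LP for 1 member (1.85%) and 1.47% of all genes, and in LPtau against NP for 1 member and 0.698% of all genes. Of Cyp1a2 the LP minus NP difference was 0.22 in liver and -0.20 in muscle, and of Cyp2j11 it was 0.30 in liver and -0.17 in muscle. Cyp3a13 in LPtau minus NP was -0.84 in liver and 0.21 in muscle, where its 12 values lay between 3.14 and 3.84. Cyp4f14 in LPtau minus LP was -0.34 in liver and 0.28 in muscle, where its values lay between 3.20 and 3.93. Cyp1a2 lay between 3.59 and 4.09 in muscle and Cyp2j11 between 3.97 and 4.87. Whether such values exceed background was not measured here, so the muscle differences are not shown to be responses. The same limit holds in liver for Cyp1a2, at 4.32 to 4.70, and Cyp4f14, at 4.31 to 4.95. The difference between tissues was not tested, since they were normalized separately.

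In muscle, Cyp2j6 had an LP minus NP difference of 0.36 without taurine and an LPtau minus NPtau difference of -0.23 with it, a pattern of 1 member (1.85%) and 0.621% of all genes. In other terms, LPtau minus LP was -0.32 and NPtau minus NP was 0.26. The interaction was -0.59 (SE 0.19; adjusted p = 0.707, limma), which did not pass.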

How the results depend on the processing

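In liver LP against NP 3 of 54 members were called in the analysis reported, 4 after cyclic loess and 2 from the contrast's 6 arrays alone, where Cyp2f2 had an adjusted p of 0.0563. Leaving out 1 array gave 0 to 5. The number called in LPtau against LP, 1 in the analysis reported, was 0 after cyclic loess, with the mean of a gene's probe sets, from the contrast's arrays alone, with sex as a covariate and with a replicate block, and 0 to 1 when an array was left out. For the interaction it was 0 to 1 when an array was left out. In the other contrasts of both tissues 0 members were called under every alternative run. Except for the fewer arrays or residual degrees of freedom of some settings, the cause of these shifts was not tested. Deviations of liver arrays that share a replicate number but not a diet had correlations between -0.21 and 0.42. Their median was 0.05, against -0.01 for arrays with other numbers. Muscle arrays gave correlations between -0.44 and 0.34, and both medians were 0.02. With 3 arrays a group, these correlations cannot decide whether the replicate numbers pair the arrays. The replicate block called 3 members in LP against NP. Cyclic loess lowered the median of all genes in liver LP against NP by 0.05 (shift -0.05). The probe sets of 4 members, Cyp1b1, Cyp2b10, Cyp4f16 and Cyp4f18, differed in sign in LP against NP. With 3 arrays a group, a difference that did not pass is not shown to be absent.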

Other observations

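Some P450 probe sets of families 1 to 4 fall outside the naming pattern or carry several symbols, and their values in liver are given here without weighing. A probe set shared by Cyp3a41a and Cyp3a41b, forms of adult female liver, read 9.36, 7.57 and 5.82 in LP livers, 11.12, 10.26 and 10.33 in LPtau livers, 10.51, 9.53 and 10.21 in NPtau livers, and 10.04, 10.50 and 10.43 in NP livers. All 3 LP arrays were below the other 9. The LP minus NP difference was -2.74 (SE 0.67; adjusted p = 0.0715 over all probe sets, limma) and the LPtau minus LP difference 2.99 (adjusted p = 0.290). Both differences use the same LP arrays. Cyp4a12a, a fatty acid hydroxylase of adult male liver and kidney, read 5.56, 6.97 and 5.71 in LP livers, against 8.43, 6.34 and 9.29 in NP livers, a difference of -1.94 (SE 0.64; adjusted p = 0.133).

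A probe set shared by Cyp2a4 and Cyp2a5, steroid and coumarin hydroxylases, read 7.85, 8.84 and 8.77 in LP livers, 8.34, 8.06 and 8.50 in LPtau livers, 8.47, 8.27 and 8.67 in NPtau livers, and 9.55, 9.16 and 9.15 in NP livers. The NP arrays were the highest of the 12, and LP minus NP was -0.80 (SE 0.24; adjusted p = 0.113), opposite in sign to Cyp2a12. The shared probe set of Cyp4a10 and Cyp4a31 differed by -0.44 and that of Cyp4f16 and Cyp4f37 by 0.44.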
